A study of Mus musculus with 3 samples.

Results

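The first day on a culture dish was followed in mPTECs, primary kidney cells of male mice aged 1 month, by setting the array of cells cultured for 1 day against the array of freshly isolated cells (day 0). The labels do not spell out the abbreviation. These are 2 of the 3 arrays of the series, the third being that of cells kept for 3 days. The cultured cells were on dishes in DMEM/F12 medium with insulin, transferrin, selenium, non-essential amino acids, 0.1 µM hydrocortisone and 1% serum, and no strain, genotype or number of animals is given for any group. All genes were compared: 18918 of the 19872 genes that the array probes could be matched to had a probe well above background on at least 1 of the 2 arrays.

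Proximal tubule cells reclaim most of what the glomerulus filters, and they carry a dense set of transporters, channels, metabolic enzymes and hormone receptors on their apical and basolateral faces. Epithelial cells that are taken from a tissue and plated lose their neighbours, their basement membrane and the flow of filtrate. Plated cells attach, spread and, in medium with serum and insulin, can enter the cell cycle, for which they must first make ribosomes, nucleotides and proteins.

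Signals are given in multiples of the 75th percentile of the signals on their own array, which was 1184 intensity units on day 0, 1509 on day 1 and 1515 on day 3. A signal compares 1 gene between arrays and does not rank genes against each other. With 1 array per day there were no replicates, no test and no p-value, so that each fold describes these arrays alone. Between spots of the same probe the log2 signals had a median SD of 0.13, and different probes of a gene differed in their log2 ratio of day 1 over day 0 with a median SD of 0.34. Genes were counted from a 4-fold difference, which is a log2 ratio of 2. At that limit 639 genes were higher on day 1 (3.38% of the genes compared) and 974 were lower (5.15%), while 13473 genes (71.2%) lay within 2-fold. From 2-fold on, 13.5% of all genes were higher and 15.3% lower. The counts of each list below are to be read beside these shares of all genes. The median log2 ratio of all genes was -0.11. This split depends on the scale: higher genes made up 39.6% of the calls here, 51.7% with arrays centred on their median, 52.6% with scaling to the spike-in controls and 23.7% with scaling to reference genes. Centring on the median, the spike-in controls, quantile normalization and the reference genes moved the median of all genes by 0.21, 0.23, 0.12 and -0.35.

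**Figure D1:**
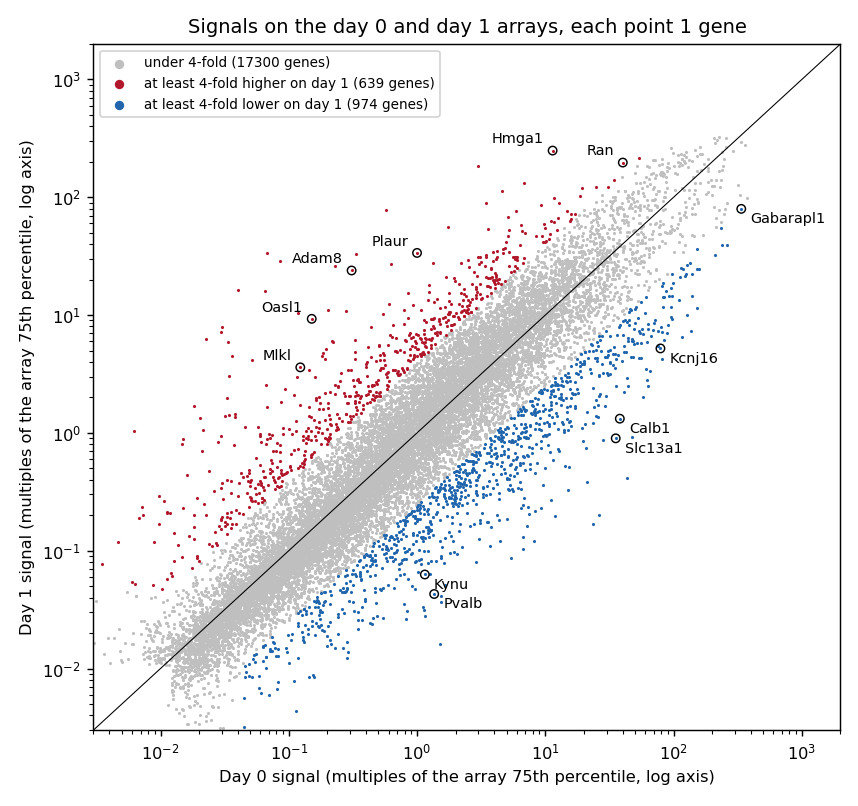
Signal of each compared gene on the day 0 array (horizontal) and the day 1 array (vertical), both in multiples of the array's 75th percentile on log axes, with 1 point per gene; genes measured on 1 array only are drawn at their dim signal. The 639 genes at least 4-fold higher (red) lie above the line of equality and the 974 lower ones (blue) below it, with 12 genes circled and named.

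The label was set beside markers. On day 0 all 14 proximal tubule markers were well above background. So were 18738 of the 19872 genes, so that this does not set a cell type apart. The summed signal of the 14 markers went from 1410 on day 0 to 249 on day 1 and 29.7 on day 3. Markers of other kidney cells were present in the fresh cells too, among them Umod of the loop of Henle with a signal of 252. In bulk RNA, fewer cells of a type and less RNA per cell cannot be told apart, so that each lower signal below may reflect either.

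The machinery that builds ribosomes had the highest median of the 44 gene lists. Of 41 genes of ribosome biogenesis, 40 had a higher signal on day 1, 37 at least 2-fold and 22 at least 4-fold (53.7%, against 3.38% of all genes), and the median log2 ratio was 2.03. None was at least 2-fold lower. Ddx21, an RNA helicase of the nucleolus whose probe lies on chromosome 10 at 62050774 to 62050833 (mm9), had signals of 0.306 on day 0, 3.45 on day 1 and 2.77 on day 3. That is 11.3-fold higher on day 1, and 2 other probes of this gene gave log2 ratios of 1.67 and 2.27. Nhp2, a core protein of the particles that guide pseudouridylation of ribosomal RNA, went from 4.84 to 36.8 and stood at 32.1 on day 3 (7.61-fold higher on day 1). Its partner Dkc1, the pseudouridine synthase of the same particles, was 6.28-fold higher, from 0.289 to 1.81. Mybbp1a, a nucleolar protein that binds Myb, went from 1.02 to 6.81, and Rrp12, which serves export of ribosomal subunits, from 0.117 to 0.733. At the other end, Nop10, the smallest protein of the same guide particles, was 1.22-fold higher. Rrp1b alone was lower, at a log2 ratio of -0.95, while its other probes gave 1.43 and 2.25. On day 3, against the same day 0 array, the median of the list was 2.04.

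The enzymes that load amino acids onto transfer RNA were higher as a class. All 20 cytosolic tRNA synthetases had a higher signal on day 1, 19 of them at least 2-fold (against 13.5% of all genes) and 5 at least 4-fold (against 3.38%), and the median was 1.76. Gars, which charges glycine, went from 0.981 to 5.79 (5.90-fold) and was at 6.88 on day 3. Cars, for cysteine, went from 1.16 to 6.44, and Rars, for arginine, from 0.328 to 1.81. Qars, for glutamine, was the least changed at 1.40-fold. The neighbouring step, translation itself, had a lower median of 1.21 over 46 factors, with 7 at least 4-fold higher. The largest ratio there belonged to Eif4ebp1, the repressor of cap-dependent initiation that mTOR inactivates, with signals of 5.13 on day 0, 67.7 on day 1 and 58.2 on day 3 (13.2-fold). Eif6, which keeps the large ribosomal subunit from joining too early, was 5.59-fold higher, and Eif2s1, the alpha subunit of eIF2, 5.08-fold. Genes of the cap complex differed: Eif4a1, Eif4e and Eif4g1 had log2 ratios of 1.78, 0.96 and 0.86, and Eif4a2 and Eif4g3 of -0.32 and -0.46.

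**Figure D2:**
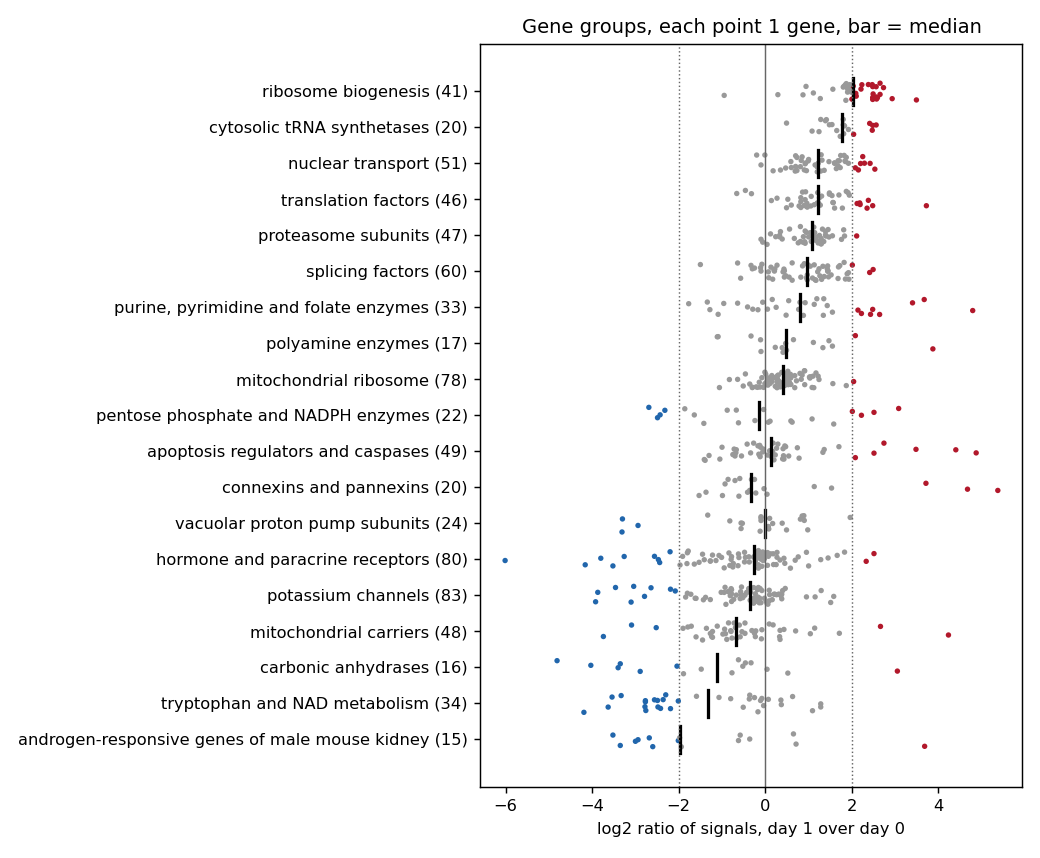
Log2 ratio of the signal on day 1 over that on day 0 for each gene of 19 gene groups, with the number of genes compared in brackets. Each point is 1 gene, red or blue from 4-fold (dotted lines), and the black bar is the median of the group, which runs from 2.03 for ribosome biogenesis to -1.98 for androgen-responsive genes.

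Gars, Tars and Aars hold, in the 250 bases before their start, the letters TGATGNAA of the element through which Atf4, a transcription factor of the amino acid response, is known to act. These stretches are printed because the tRNA synthetases had higher signals together, with the element in capitals on whichever strand it lies (5′ to 3′ on the strand of the gene, RefSeq promoters of GRCm38.p6). Aars was chosen for this element after its values were seen; its signal was 3.51-fold higher, and its other probes gave log2 ratios from -0.06 to 2.17.
Gars, chr6:55037921-55038000, plus strand: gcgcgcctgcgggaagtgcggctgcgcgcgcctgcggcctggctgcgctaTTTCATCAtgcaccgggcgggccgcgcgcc
Tars, chr15:11399659-11399738, minus strand: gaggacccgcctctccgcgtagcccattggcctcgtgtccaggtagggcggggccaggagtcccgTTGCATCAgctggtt
Aars, chr8:111033695-111033774, plus strand: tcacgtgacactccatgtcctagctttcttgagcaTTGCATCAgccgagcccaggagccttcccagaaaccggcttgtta
Of the 20 synthetases, 13 had a promoter in the table, and the element was in 3 of them (23.1%), against 954 of 27025 promoters (3.53%). It was also in 3 of 23 promoters of the 30 genes with the largest downward ratios (13%). Whether the element has a part in either direction was not tested. The E-box CACGTG, which Myc and related factors bind, was in 3 of the 13 synthetase promoters (23.1%), in 2 of 35 promoters of ribosome biogenesis genes (5.71%) and in 6.05% of all. Both strands were searched, TGATGNAA can overlap other elements, and a match describes letters, not a bound site.

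Supplies for nucleic acid synthesis were higher in part. Of 33 enzymes that make purines, pyrimidines and one-carbon units, 8 were higher by 4-fold or more and none was lower by as much, and the median was 0.80. Mthfd1l, the mitochondrial enzyme that releases formate for purine synthesis, had signals of 0.219 on day 0, 6.03 on day 1 and 9.66 on day 3, which is 27.6-fold higher on day 1. Its probe lies on chromosome 10 at 6190563 to 6190622 (mm9). The salvage kinase Uck2 went from 2.19 to 27.8 (12.7-fold), with another probe at a log2 ratio of 1.89. The purine chain was uneven. Of its later enzymes, Atic was 6.25-fold higher and Impdh2, which commits inosinate to guanine nucleotides, 5.40-fold. The early enzymes differed among themselves. Prps2 and Ppat had log2 ratios of -1.28 and -1.34 (other probes 0.00 and 0.36), and Paics and Pfas of -0.41 and -0.17. Gart had a log2 ratio of 1.35, which was 0.10 with the mean over its probes. The sign of Prps2 changed without the multiplicative trend correction. Ctps, the CTP synthase, was 5.57-fold higher, whereas its relative Ctps2 had a log2 ratio of -0.29. Cytosolic folate enzymes were also lower, with Shmt1 at -1.77 and Mthfd1 at -1.09. Among 17 polyamine genes (median 0.47), spermidine synthase, Srm, went from 1.23 to 17.9 (14.6-fold), and Odc1, the entry enzyme, was 1.57-fold higher, its other probe giving a log2 ratio of 0.96.

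Traffic through the nuclear pore and turnover of protein were higher by smaller folds. Of 51 genes of nuclear transport, 30 were at least 2-fold higher (against 13.5% of all genes). From 4-fold on, 7 were higher (13.7%, against 3.38%), and the median was 1.22. The signal of Ran, the GTPase that sets the direction of transport, was 40.2 on day 0, 197 on day 1 and 175 on day 3. Ranbp1, its cofactor, was 5.77-fold higher and the importin Kpnb1 5.35-fold, with another probe at 1.07 in log2 ratio. Of 47 proteasome subunits, 27 were at least 2-fold higher (against 13.5% of all genes) and 1 at least 4-fold (2.13%, against 3.38%), the median was 1.07, and none was at least 2-fold lower. Of 60 splicing factors, the signal of 28 was 2-fold or more higher and that of 1 was lower by as much (median 0.97), namely Clk1, a kinase of SR proteins, which was 2.83-fold lower. Mitochondrial translation moved less: the median was 0.40 over 78 proteins of the mitochondrial ribosome and 0.53 over 25 of protein import. Histones had a median of 0.03, which takes the other sign with scaling to reference genes and with normexp background correction.

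These medians stayed above 0 under every setting tried for the lists of ribosome biogenesis (1.67 to 2.25), tRNA synthetases (1.41 to 1.99) and nuclear transport (0.87 to 1.45). Scaling to reference genes lowered each log2 ratio by 0.35, which took Ran and Eif2s1 under 4-fold, as it did the genes G6pdx, Taldo1 and Bax described next.

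The pentose phosphate pathway and the other sources of NADPH held members in both directions. Of 22 genes, 4 were higher (18.2%, against 3.38% of all genes) and 4 lower (18.2%, against 5.15%) by 4-fold or more. The median of -0.14 takes the other sign with median centring and spike-in scaling. Of the pathway itself, Pgd went from 4.94 to 41.9 (8.47-fold) and stood at 26.1 on day 3, the pathway's entry enzyme G6pdx was 4.67-fold higher, and Taldo1, of the nonoxidative branch, 4.02-fold, while Pgls and H6pd had log2 ratios of 0.11 and -0.04. Me2, a malic enzyme outside the pathway, was 2.99-fold higher. Lower were the isocitrate dehydrogenases, with Idh1 at 6.47-fold and Idh2 at 5.00-fold, and the fructose kinase Khk, whose signal went from 113 to 20.9 and 3.62.

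Genes that carry out or restrain cell death passed 4-fold on the higher side only. Of 49 regulators and caspases, the 4-fold limit was passed upward by 6 (12.2%, against 3.38% of all genes) and downward by none (against 5.15%). The median of 0.13 takes the other sign with scaling to reference genes. Mlkl, the pore-forming effector of necroptosis (probe on chromosome 8 at 113835897 to 113835956, mm9), had signals of 0.123 on day 0, 3.60 on day 1 and 3.13 on day 3, which is 29.3-fold higher on day 1. Ripk3, the kinase that activates it, went from 0.336 to 2.24 (6.68-fold). Gsdma, a gasdermin known from skin, was 21.2-fold higher, but other gasdermins were not, with Gsdmd at a log2 ratio of -0.06, Gsdme at -1.30 and Gsdmc, Gsdmc2 and Gsdmc3 at -0.12, 0.10 and -0.42. Of the Bcl2 family, Bok went from 1.21 to 13.5 and 32.7 on day 3, and Bax was 4.22-fold higher. Pmaip1, a BH3-only member, had a log2 ratio of -1.41. The Tnf family list held 44 genes, of which 2 were at least 4-fold higher (4.55%, against 3.38% of all genes). Among them was Tnfrsf12a, the receptor of the ligand Tweak, whose signal was 11.7 on day 0, 99.4 on day 1 and 77.3 on day 3.

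Cell contact and matrix genes changed singly rather than as groups. The list of 20 connexins and pannexins had a median of -0.34. Panx1, which forms a channel that releases ATP, went from 0.412 to 5.37, whereas the kidney connexins Gjb2 and Gjb1 had log2 ratios of -1.53 and -1.37. Adam8, a membrane metalloprotease, had signals of 0.309, 23.9 and 33.2 (77.5-fold on day 1), and its probe lies on chromosome 7 at 147164928 to 147164987 (mm9). Plaur, the urokinase receptor, went from 1.00 to 33.7, and Lamb3, a laminin chain of basement membranes, was 35.7-fold higher. Of 21 genes of desmosomes and hemidesmosomes, the cytoskeletal linkers Plec and Evpl were 4.20-fold higher and 4.52-fold lower; Plec was under 4-fold with scaling to reference genes and Evpl with median centring and spike-in scaling.

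The lists of Notch, cilium, Hox and zinc finger genes held few or no members past 4-fold. The list of MAP kinase phosphatases and inhibitors held a larger share on the lower side. The ligands and receptors of the Fgf, Vegf, Pdgf and Hgf families numbered 56. None of them was higher by 4-fold or more (against 3.38% of all genes) and 4 were lower (7.14%, against 5.15%). The lists of 32 Notch genes and 61 cilium genes held none in either direction. Of 69 semaphorins, plexins, ephrins and Eph receptors, 3 were at least 4-fold higher (4.35%, against 3.38% of all genes), led by Sema3c at 9.25-fold. Lower by as much were 4 (5.8%, against 5.15%), led by Sema4g at 11.9-fold. Hox genes, which keep the position of a tissue, were within 2-fold for 27 of 37, the other 10 were at least 2-fold lower (against 15.3% of all genes), and the median was -0.47. The MAP kinase list held 24 genes, mostly phosphatases and inhibitors that restrain MAP kinase. Of these 24, Dusp10 was 6.69-fold higher and 4 were lower by 4-fold or more (16.7%, against 5.15% of all genes). The 4 were Dusp1 by 4.70-fold, Errfi1 by 4.54-fold, Lrig3 by 4.01-fold and Etv1 by 6.30-fold. Etv1 is a transcription factor and neither a phosphatase nor such an inhibitor. Errfi1 and Lrig3 were under 4-fold with median centring and spike-in scaling, and the list's median of -0.01 takes the other sign with these, quantile normalization and the mean over probes. Among 346 zinc finger genes named Zfp, 3 were at least 4-fold higher (0.867%) and 2 lower (0.578%). Their median of 0.02 takes the other sign with scaling to reference genes, normexp and the mean over probes.

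Further genes were higher outside these lists. Hmga1, a chromatin architectural protein of growing cells, had signals of 11.4 on day 0, 249 on day 1 and 200 on day 3 (21.8-fold on day 1). The galectin Lgals3 went from 6.79 to 133, and Akr1b8, an aldo-keto reductase, from 4.61 to 113. Slc25a24, a carrier of ATP-Mg and phosphate in the inner mitochondrial membrane, was 18.8-fold higher, with another probe at a log2 ratio of 2.19, in a list of 48 mitochondrial carriers whose median was -0.67. Cd68, a lysosomal glycoprotein used as a macrophage marker, went from 0.162 to 1.98, while the summed signal of 16 macrophage markers went from 16.1 to 12.1. Past 4-fold, 1 of those markers was higher and 1, Mrc1, was lower, and Adgre1 and Csf1r had log2 ratios of 0.12 and -0.02. Their part in the Cd68 result was not tested.

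Genes of tryptophan and NAD metabolism were lower as a group. Of 34 genes, 16 lay at or beyond 4-fold on the lower side (47.1%, against 5.15% of all genes) and none on the higher side, and the median was -1.33. The kynurenine pathway breaks tryptophan down towards quinolinate, from which the kidney and liver can make NAD. Kynu, its kynureninase (probe on chromosome 2 at 43537195 to 43537254, mm9), had signals of 1.15 on day 0, 0.0628 on day 1 and 0.0592 on day 3, which is 18.3-fold lower on day 1. Kmo, the hydroxylase before it, was 12.4-fold lower, at 0.121 on day 1 and 0.026 on day 3, and Aadat, which makes kynurenic acid, went from 31.8 to 3.16 and 0.789. Qprt, which turns quinolinate into the NAD precursor, was 6.88-fold lower. Naprt, which uses nicotinic acid, was 6.81-fold lower, and Afmid, near the head of the pathway, 5.88-fold; both were chosen for their place in the pathway after their values were seen. Nampt, the enzyme that salvages nicotinamide, ran the other way with signals of 6.92, 16.8 and 7.48, its other probes giving log2 ratios from 0.46 to 1.37. Nnmt, which removes nicotinamide by methylation, was 2.13-fold higher on day 1 and went from 0.381 on day 1 to 5.72 on day 3.

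Genes that in male mouse kidney depend on androgens were lower as well. Of 15, 7 were lower (46.7%, against 5.15% of all genes) and 1 was higher (6.67%, against 3.38%) by 4-fold or more, and 5 were within 2-fold. The median was -1.98. Cyp2e1, a cytochrome P450, went from 4.20 to 0.365 and 0.00688, and Rdh16f2, a retinol dehydrogenase, from 47.8 to 5.97 and 0.161. The 1 higher by 4-fold or more was Timd2, a receptor for ferritin, which went from 0.644 to 8.28. Kap, the kidney androgen-regulated protein, was 3.83-fold lower on day 1, from 213 to 55.6, and stood at 9.20 on day 3. The 14 proximal tubule markers, of which Kap is 1, had a median of -3.09, and their part in this result was not tested.

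**Figure D3:**
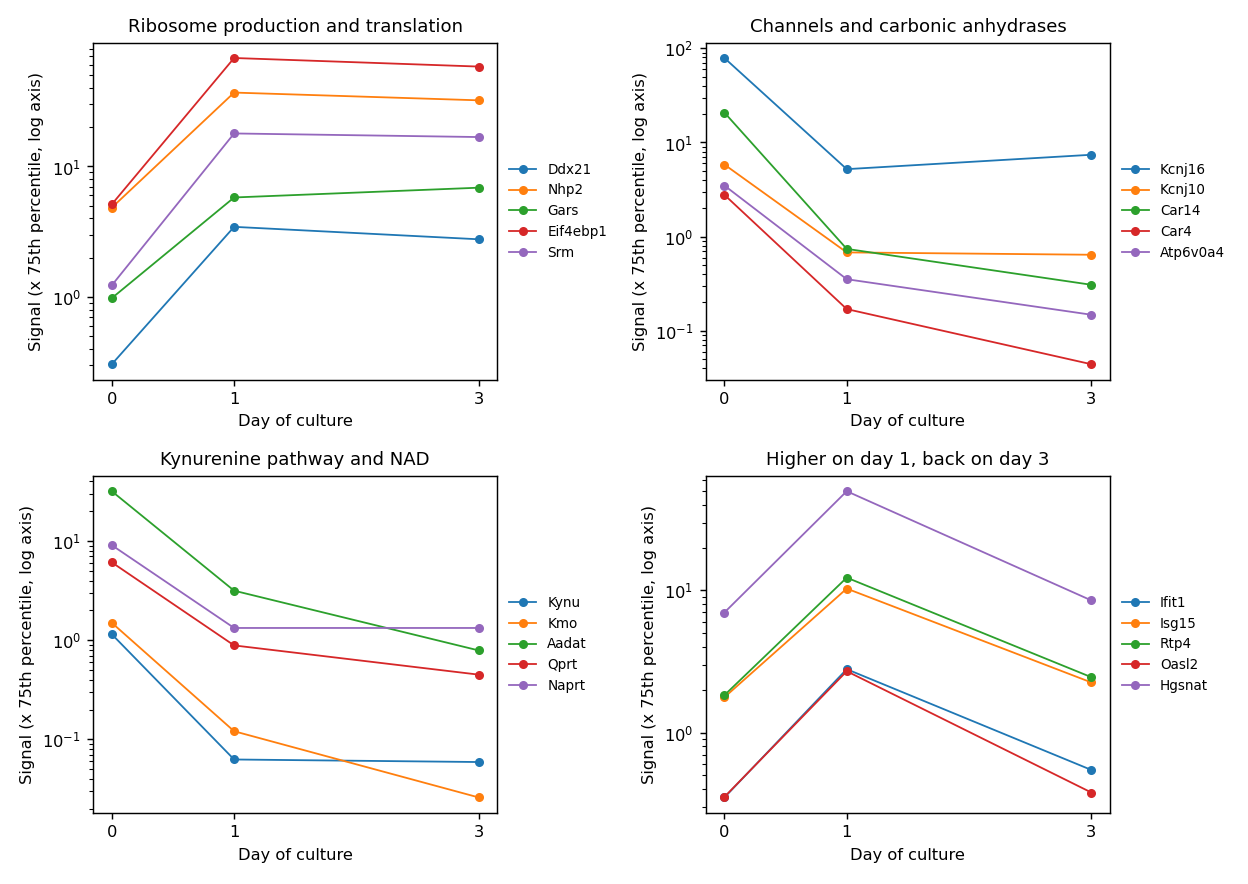
Signals of 20 genes on the 3 arrays (day 0, day 1, day 3), in multiples of the array's 75th percentile on log axes; each point is 1 array, and lines join the values of a gene. Ribosome and translation genes reached their day 3 range by day 1, channel and kynurenine genes were lower by day 1, and the genes at lower right were high on day 1 only.

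Potassium channels, which recycle potassium and set the membrane voltage of the tubule, included several of the kidney's main channels among their lower members. Of 83, 9 were lower by 4-fold or more (10.8%, against 5.15% of all genes) and none was higher by as much (against 3.38%). The median was -0.35, and it was -0.14 with median centring and -0.09 with quantile normalization. Among the 9, Kcna5, Kcnab1 and Kcnab3 were under 4-fold with normexp. Kcnj16 (Kir5.1), a basolateral subunit with its probe on chromosome 11 at 110887904 to 110887963 (mm9), had signals of 79.0 on day 0, 5.21 on day 1 and 7.41 on day 3. That is 15.2-fold lower on day 1, and other probes gave log2 ratios from -4.25 to -3.79. Its partners Kcnj10 (Kir4.1) and Kcnj15 (Kir4.2) went from 5.83 to 0.68 and from 5.12 to 0.621. Kcnj1, the secretory channel ROMK, went from 91.0 to 8.24. The 61 channels within 2-fold included Kcnk13, with a log2 ratio of 0.95.

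Genes that handle acid and base differed between isoforms. Carbonic anhydrases speed the exchange of bicarbonate and protons. Of 16, 6 were at least 4-fold lower (37.5%, against 5.15% of all genes) and 1 higher (6.25%, against 3.38%), with a median of -1.12. Several membrane-bound forms were lower: Car14 went from 20.8 to 0.741 and 0.308 (28.1-fold on day 1; probe on chromosome 3 at 95701859 to 95701918, mm9), Car4 from 2.78 to 0.17, Car12 from 9.54 to 0.934 and Car15 from 6.04 to 0.812. Cytosolic Car2 had signals of 42.5, 29.8 and 34.4, a log2 ratio of -0.52 on day 1, and Car13, also cytosolic, was 8.26-fold higher. The isoforms did not divide cleanly by place in the cell, since cytosolic Car8 was 4.11-fold lower, Car3 had a log2 ratio of -1.48, and membrane-bound Car9 one of -0.62. Car8 was under 4-fold with median centring, spike-in scaling, quantile normalization and normexp. Of 24 subunits of the vacuolar proton pump, 3 were at least 4-fold lower (12.5%, against 5.15% of all genes). They were Atp6v0a4 at 9.89-fold, Atp6v1c2 at 9.87-fold and Atp6v1b1 at 7.66-fold, which are isoforms known from kidney and from intercalated cells. Widely expressed isoforms were not lower to that extent, with Atp6v1a at a log2 ratio of -0.56, Atp6v1b2 at 0.39 and Atp6v1c1 at 1.96. The division was not clean, since Atp6v0d2 and Atp6v1g3, also markers of intercalated cells, had log2 ratios of 0.98 and -0.82. The median of -0.01 takes the other sign with median centring, spike-in scaling, normexp, the mean over probes and without the multiplicative trend correction. With normexp Atp6v1b1 was under 4-fold lower. Beside this, the summed signal of 9 intercalated cell markers, of which Atp6v1c2 is 1, went from 30.1 to 6.91, with 4 at least 4-fold lower, and its part in the result was not tested.

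Of 80 receptors for hormones and local signals, 9 were lower (11.2%, against 5.15% of all genes) and 2 higher (against 3.38%) by 4-fold or more. Their median of -0.26 was -0.05 with median centring and -0.03 with spike-in scaling. Kl encodes klotho, the coreceptor through which Fgf23 tells the kidney to excrete phosphate, and its signal was 24.7 on day 0, 1.38 on day 1 and 0.521 on day 3. It was 17.9-fold lower on day 1, and another probe gave a log2 ratio of -2.66. Gcgr, the glucagon receptor, went from 7.39 to 0.642, and P2ry1, a receptor for ADP, was 13.9-fold lower. Npr3, the clearance receptor for natriuretic peptides, was 9.57-fold and Lpar3, a lysophosphatidic acid receptor, 5.90-fold lower. Agtr1a, an angiotensin receptor, was 5.44-fold lower, and with the mean over its probes it was under 4-fold. Gprc5a, an orphan receptor induced by retinoic acid, was 5.70-fold higher.

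Of the 33 genes of prostaglandins and leukotrienes, 5 were at least 4-fold lower (15.2%, against 5.15% of all genes) and 3 higher (9.09%, against 3.38%). Their median of -0.19 takes the other sign with median centring and spike-in scaling. The secreted phospholipase Pla2g5 went from 3.74 to 0.158 (23.6-fold lower), and Hpgd, which inactivates prostaglandins, was 9.07-fold lower and under 4-fold with normexp. Ptgr1, a reductase of the same degradation route, was 8.66-fold higher, and Hpgds, a synthase of prostaglandin D2, went from 0.0192 to 0.282 and 0.0551. In the circadian clock list of 22, Hlf, an output factor, was 9.28-fold lower, from 2.86 to 0.309, and Cry1, a repressor of the clock, was 4.22-fold higher, though under 4-fold with scaling to reference genes, normexp and the mean over probes. Clock and Per3 had log2 ratios of 0.56 and 0.01. Among 68 lysosomal genes the median was -0.40. The calcium channel Mcoln3 was 8.58-fold lower, and the kidney aspartic protease Napsa, 4.54-fold lower here, was under 4-fold with median centring and spike-in scaling. The protease Ctsd was 2.26-fold higher.

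The solute carriers, 337 in number, had 75 members at least 4-fold lower (22.3%) and 14 higher (4.15%), with a median of -0.54. The sulfate transporter Slc13a1 went from 35.4 to 0.899 and 0.557 (39.3-fold lower on day 1), and Slc7a9, a subunit of the cystine transporter that is defective in cystinuria, from 28.2 to 0.862. The 810 olfactory receptors held none that was 4-fold or more higher and 4 that were lower by as much (0.494%, median -0.27). Their summed signal on day 0 was only 161. Whether so dim a signal limits the fall that can be seen was not tested, so these receptors are no measure for the solute carriers. Further genes among the 30 with the largest ratios were Fn3k, a kinase that removes sugar from proteins, 40.7-fold lower with its other probe at a log2 ratio of -2.43, and A1cf, the RNA-binding cofactor of apolipoprotein B editing, 32.1-fold lower. Coq8a, a kinase-like protein of coenzyme Q synthesis, went from 7.49 to 0.204, and Cckar, a cholecystokinin receptor, from 1.11 to 0.033. Gabarapl1, of autophagosome formation, went from 337 to 79.7 and 55.6, and was under 4-fold with median centring and spike-in scaling.

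Markers of the other cells of the kidney moved with these losses, by different amounts. Of 10 podocyte markers, 7 were lower by 4-fold or more (median -2.15), and their summed signal went from 25.8 to 5.73. Nphs1 (nephrin), of the slit diaphragm, was 12.4-fold lower. Of 8 distal convoluted tubule markers, 5 were at least 4-fold lower and the summed signal went from 129 to 13.5, led by Pvalb at 31.6-fold and Calb1 at 28.9-fold. Of 8 loop of Henle markers 4 were lower by 4-fold or more, with a sum of 634 on day 0 and 123 on day 1, and 3 of 9 principal cell markers, with sums of 52.0 and 12.4. Red blood cell markers were lower in 5 of 8, with Hbb-bt, a beta globin gene, going from 14.7 to 1.67 and sums of 24.0 and 3.16. All compared markers of these lists were well above background on day 0, as were 18738 of the 19872 genes. This alone does not show that a cell type was present.

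**Figure D4:**
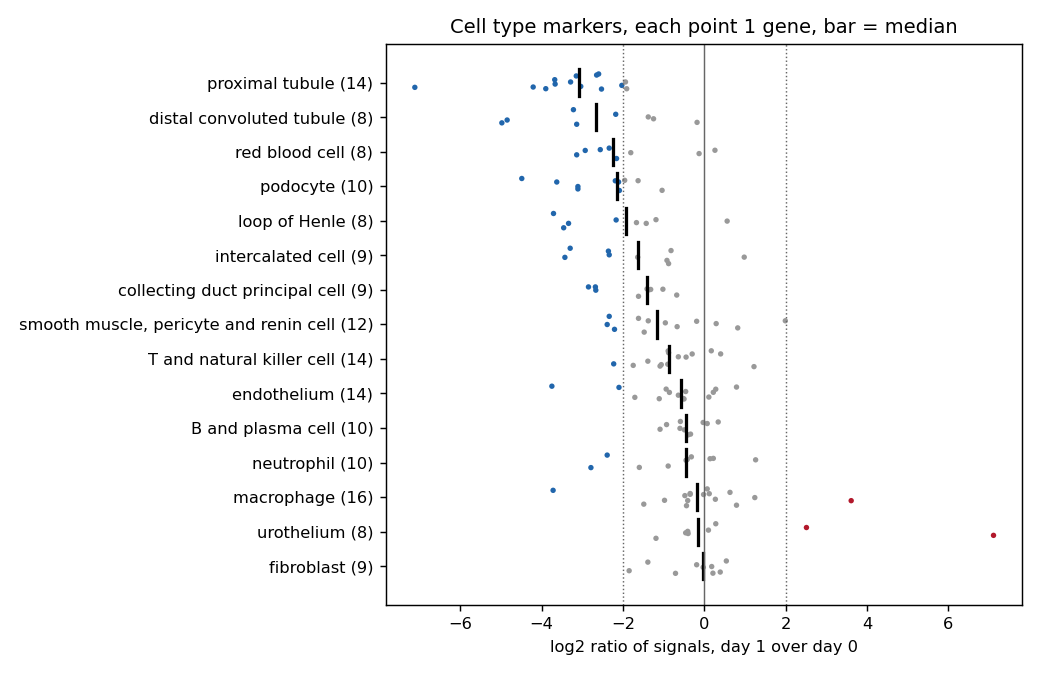
Log2 ratio of the signal on day 1 over that on day 0 for each marker of 15 cell types, with the number compared in brackets. Each point is 1 gene, red or blue from 4-fold, and the black bar is the median, which runs from -3.09 for proximal tubule to -0.03 for fibroblast.

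Markers of blood vessels and immune cells differed less. For endothelium, 2 of 14 were lower by 4-fold or more, the median was -0.58, and the sum went from 56.2 to 29.7. Of the 14, 10 had a log2 ratio below 0 and 4 above. Pecam1 and Cdh5, defining genes of endothelium, had log2 ratios of 0.11 and 0.79, the second being the highest of the list. Other markers of endothelium were lower, with Kdr at -1.71, Emcn at -1.11, Eng at -0.94 and Flt1 at -0.86. Ehd3, of the glomerular endothelium, was 13.4-fold lower. None of 9 fibroblast markers reached 4-fold, and their median of -0.03 takes the other sign with median centring, spike-in scaling, quantile normalization and without the trend correction. Of the smooth muscle, pericyte and renin markers 3 of 12 were at least 4-fold lower, T and natural killer cells had 1 of 14, B cells none of 10 and neutrophils 2 of 10. In the urothelium list Krt20 and Krt5 were the 2 of 8 at least 4-fold higher, and Krt20 went from 0.568 to 78.5. Its defining genes Upk2, Upk3a and Upk1b had log2 ratios of -0.41, -0.46 and -0.40. The part of other cell types in the losses was not tested.

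A few genes were different on day 1 but back within 2-fold of day 0 on day 3. The 8 with the largest upward ratios of this kind included several genes that type I interferon induces. Ifit1, which binds foreign RNA (probe on chromosome 19 at 34723796 to 34723855, mm9), had signals of 0.349 on day 0, 2.79 on day 1 and 0.545 on day 3, 8.01-fold higher on day 1. Isg15, a ubiquitin-like modifier, went from 1.77 to 10.3 and 2.25. Rtp4, Oasl2, Ifi35 and Apol9b were 6.75-fold, 7.68-fold, 5.78-fold and 6.78-fold higher on day 1. Hgsnat, a lysosomal enzyme of heparan sulfate breakdown, also belonged to the 8, with signals of 6.99, 49.9 and 8.50. Oasl1, an interferon-induced gene that stayed above its day 0 signal, went from 0.151 to 9.29 and 3.10.

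Of the 8 genes, 5 had a promoter in the table, and 3 of these (60.0%), against 3.04% of all, held GAAA, any 2 bases and GAAA again, the letters of the interferon-stimulated response element, to which Irf and Stat factors are known to bind. The element was chosen for the search after these genes were seen, so this share is a description and supports nothing. The stretches are printed with the element in capitals, on either strand, from the RefSeq promoters of GRCm38.p6.
Ifit1, chr19:34640769-34640848, plus strand: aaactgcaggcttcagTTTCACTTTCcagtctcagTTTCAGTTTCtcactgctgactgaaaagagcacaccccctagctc
Isg15, chr4:156200840-156200919, minus strand: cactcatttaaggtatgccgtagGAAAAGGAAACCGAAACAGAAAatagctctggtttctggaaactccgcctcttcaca
Apol9b, chr15:77728992-77729071, plus strand: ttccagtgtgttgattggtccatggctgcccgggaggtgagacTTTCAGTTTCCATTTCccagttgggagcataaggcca
The promoter of Isg15 held 3 overlapping copies, and those of Ifit1 and Apol9b 2 each.

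In the other direction, genes lower on day 1 and back on day 3 included 2 chemokines of myeloid cells. Ccl4 had signals of 1.33, 0.137 and 0.919 on days 0, 1 and 3, and Ccl3 of 0.799, 0.0975 and 0.716. Cd83, a surface protein of activated immune cells, was 6.17-fold lower on day 1, at 0.691, 0.112 and 0.449. Spc25, of the kinetochore, went from 4.59 to 0.774 and 3.77 on its 1 probe. Tpx2, of the mitotic spindle, ran the other way, from 0.0659 to 2.55 and 7.76. The ratios of day 1 and day 3 share the day 0 array, so a high or low spot there enters both.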

How the data were processed

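RNA of mPTECs of day 0, day 1 and day 3 was labelled with Cy3 and hybridised to 1-colour Agilent mouse arrays, 1 sample to each of 3 arrays on 1 slide, per the labels' protocols and the file headers. The deposited array files hold intensity values per spot: the processed signal, background subtracted and detrended but not normalized between arrays, the raw and background signals, and per-spot flags (unit other) that are 0 or 1. Per the file headers the scanner software was Agilent Feature Extraction 10.5.1.1; version 9.1 is the one in the submitters' processing notes. The value table that the authors deposited holds a ratio, the processed signal over the 75th percentile of its array.

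Of 45018 spots on an array, 1639 controls and the spots with an outlier flag (94 on day 0, 102 on day 1 and 85 on day 3) were left out, and no spot was saturated. Signals were divided by the 75th percentile of the array and spots of a probe averaged. Of 41174 probes, 27001 took their name from a RefSeq transcript accession, 4955 by symbol and 807 by synonym, and 8411 stayed unnamed. Each gene was represented by 1 probe, the brightest on average across the 3 arrays. Among the genes compared, 18436 were measured by that probe on both arrays, and for 477 the ratio is a bound against the lowest signal well above background (1.14% of the 75th percentile on day 0, 1.06% on day 1), given as "at least"; 5 were measured on neither by that probe and were given a ratio of 1. Probe positions are those of the files (mm9), and whether they lie in exons was not looked up. Precision is limited by how few arrays there are.

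The members and the 44 gene lists and 15 marker lists were chosen with earlier results of these data known. Genes were named by a rule: the 30 with the largest ratio in each direction, the 10 with the largest bounds, the 12 brightest past 4-fold, the 8 back within 2-fold on day 3, and up to 6 members of a list in each direction, with members near 0 as contrast and defining markers. Other genes were named after their values were seen, for their role. A list's counts and median cover members well above background on at least 1 of the 2 arrays. Alternatives were median, spike-in, reference gene and quantile scaling, normexp background correction (limma 3.58.1, R 4.3.3, offset 50), no trend correction, the deposited value table, other rules for probes and filters, and a 2-fold limit. Some genes are not reported here. The script was checked on simulated data. Python 3.11.15 and pandas 2.3.3 were used.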

Additional observations from a re-analysis of the deposited data

Results flagged for a closer look

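Of the probes without a gene name, 5826 were well above background on both arrays and enter no comparison of genes. Among them 56 were at least 4-fold higher on day 1 and 144 at least 4-fold lower. They have no gene name here and are given as a count.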

How the results depend on the processing

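With 1 array per day no difference has a replicate check, and bounds depend on the dimmest measurable signal. No paired analysis was possible because each day has a single array. Across the scalings, background corrections, probe rules and filters tried, the number of genes at least 4-fold higher ran from 431 to 866 and of those lower from 746 to 1386. With a 2-fold limit 2556 genes were higher and 2889 lower, since a lower limit takes in more genes. Of the 59 list medians, all moved by the shift of -0.35 with scaling to reference genes, and 3 moved with normexp. The ratio of Pglyrp2, a bacterial wall amidase, was 3.44 in log2 and was -0.25 when the gene was represented by the probe brightest over day 0 and day 1, because another probe then stood for it. The counts with normexp, 502 and 746, were lower than the main ones. The cause was not tested.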

Other observations

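Zinc handling, protease inhibitors and membrane traffic held further differences on day 1, each with 1 array a side. Of 27 metallothioneins and zinc transporters (median 0.37), 2 were at least 4-fold higher and 2 lower. The zinc importer Slc39a6 went from 0.98 to 6.97, and Mt1, which binds zinc and copper, from 30.6 to 123 and 45.9 on day 3; Mt1 was 4.01-fold higher, and under 4-fold with reference gene scaling and quantile normalization. Of 54 serpins, 5 were at least 4-fold higher (9.26%, against 3.38% of all genes) and 5 lower (9.26%, against 5.15%). Serpinb6d and Serpinb6c, intracellular inhibitors of a cluster of near copies whose probes may not separate them, were 9.65-fold and 6.37-fold higher, and Serpinf2, the inhibitor of plasmin, was 13.1-fold lower, from 6.01 to 0.459.

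Of 67 genes of proteoglycans and heparan sulfate, 3 were at least 4-fold higher and 2 lower. Hs3st1, a sulfotransferase that makes the antithrombin-binding form, was 11.1-fold higher, and Srgn, the serglycin core protein of secretory granules, was 7.60-fold lower, from 10.7 to 1.41. Tetraspanins (28) held 2 at least 4-fold lower, Tspan1 at 10.9-fold and Tspan2 at 4.13-fold, the second under 4-fold in some settings. Mucins and other apical glycoproteins (29) held 3, with Ceacam1 going from 10.2 to 0.95, other probes giving log2 ratios from -2.22 to -1.11. Of 58 Rab GTPases, Rab3a, of regulated secretion, was 7.56-fold lower. Of 41 pattern recognition receptors, Dhx58, a sensor of viral RNA, was 10.7-fold higher, with another probe at 0.68 in log2 ratio, and Nlrp6, a sensor of the inflammasome family, was 27.3-fold lower, from 6.68 to 0.244. Of 32 enzymes of sphingolipids and ceramides, none was at least 4-fold higher and 2 were at least 4-fold lower.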
